A study of Homo sapiens with 6 samples.

Results

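The genes described here encode factors of pre-mRNA cleavage and polyadenylation, or proteins linked to it, leaving out the subunits of CFIm. They are CPSF1 and CPSF2 of the cleavage and polyadenylation specificity factor (CPSF), CSTF1 and CSTF2T of the cleavage stimulation factor (CstF), PCF11 and CLP1 of cleavage factor II (CFII), the poly(A) polymerase PAPOLG, the poly(A)-binding protein PABPC1 and PPP1CB, a catalytic subunit of the phosphatase PP1. These 9 genes were taken by symbol from a deposited table that gives 2 polyadenylation sites (PASs) for each of 2723 genes. They were chosen among genes that have a row in it. The table was made from QuantSeq FWD libraries, in which oligo(dT) primes reverse transcription so that reads mark the 3′ ends of mRNAs. The RNA came from HL-60, a line of human promyelocytic leukemia cells. OE-CFIm25 cells (3 samples) carried a lentivirus with the CFIm25 coding sequence behind an EF-1a promoter and on the same mRNA as the puromycin marker, and OE-control cells (3 samples) carried the vector backbone with no insert. Both groups were selected with puromycin and then treated for 6 h with 3 nM PMA, a phorbol ester that drives these cells toward macrophages. The proximal PAS (pPAS) and distal PAS (dPAS) of a gene are those that the authors found to be used most within its terminal-exon 3′ UTR. The table gives 1 pair of positions per gene for all 6 samples together and no read count or expression level for a sample. The positions therefore carry no SD, the labelled cell type could not be checked against its markers, and OE-CFIm25 and OE-control cells are not compared here. What the data show is where the mRNAs of these genes can end and which sequence surrounds each end.

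Cleavage and polyadenylation of pre-mRNA depends on short sequences around the PAS. CPSF recognises the poly(A) signal AAUAAA, or its close relative AUUAAA, upstream of the cut, CFIm binds UGUA through its subunit CFIm25, and CstF binds U-rich and GU-rich sequence downstream. In alternative polyadenylation (APA), use of the pPAS yields a short mRNA isoform that lacks the stretch of 3′ UTR between the PASs, with any regulatory element in it. Several genes of the machinery are themselves known to be regulated by the choice of PAS.

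Sequences at selected PASs are shown here as the last 30 nt up to and including the PAS, in DNA letters, 5′ to 3′ on the strand of the mRNA, from hg19. The CLP1 PASs are shown because they are close neighbours that each had a poly(A) signal of their own, and those of PCF11 because the signals stood at the same distance from both PASs. The PAPOLG dPAS and the PPP1CB PASs are shown because only the distal one of each gene had a canonical signal, AATAAA or ATTAAA. The CSTF1 pPAS and CPSF2 dPAS are the ones with ATTAAA. Capitals mark the poly(A) signal and, at the PPP1CB pPAS, the weaker hexamer AGTAAA.
CLP1 pPAS, chr11:57429269-57429298, + strand: gagggactccttccAATAAAgttcaaactt
CLP1 dPAS, chr11:57429307-57429336, + strand: tcattttAATAAAtatttttgccatatcat
PCF11 pPAS, chr11:82896214-82896243, + strand: tgtaaattataAATAAAaaatatttttgct
PCF11 dPAS, chr11:82896804-82896833, + strand: ttcatacatgtAATAAAtagaatgatgaag
PAPOLG dPAS, chr2:61029191-61029220, + strand: aagtaatcaAATAAAattgctttgataaat
PPP1CB pPAS, chr2:29023873-29023902, + strand: ttttctcatttAGTAAAagttgtctaattg
PPP1CB dPAS, chr2:29024486-29024515, + strand: tgaaataAATAAAactttgtttcttaggag
CSTF1 pPAS, chr20:54979075-54979104, + strand: aggatagggcATTAAAgtgcttttgacatg
CPSF2 dPAS, chr14:92630514-92630543, + strand: agtcaATTAAAcgtgtttactttataaatt

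At PCF11 and PAPOLG, UGUA stood in clusters farther upstream of the pPAS. The stretch with 3 copies in each gene is shown with UGUA, written TGTA, in capitals.
PCF11 upstream of the pPAS, chr11:82896171-82896200, + strand: tgaaatTGTAtgTGTAaaaaTGTAcgattt
PAPOLG upstream of the pPAS, chr2:61025546-61025575, + strand: agtattttTGTATGTAcTGTAagataccat

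All 9 genes had both PASs within the last-exon 3′ UTR of an annotated transcript, as did 2693 of the 2723 genes (98.9%). The authors took the PASs from terminal-exon 3′ UTRs, so this only checks their placement on the annotation used here. The 3′ UTR of the short isoform, measured as the distance of the pPAS past the stop codon, ran between 57 nt in CPSF1 and 1733 nt in PPP1CB, with a median of 321 nt. That of the long isoform ran between 86 nt in CPSF1 and 4925 nt in PAPOLG, with a median of 897 nt. Both medians were shorter than over the table, where they were 573 nt and 1739 nt in the 2693 genes that could be placed. Both still lay between the quartiles over the table, 234 and 1311 nt for the pPAS and 892 and 3074 nt for the dPAS. The genes did not share 1 layout. CPSF1 and CLP1 had PASs that nearly coincide, while CPSF2, CSTF2T and PAPOLG had pairs that lay far apart. An annotated transcript ended within 24 nt of the pPAS in 3 of the 9 genes and of the dPAS in 7. Over all genes this was so at 39.7% of pPASs and 73.45% of dPASs. The share of the 3′ UTR kept in the short isoform is given below relative to the long isoform, which ends at the dPAS.

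**Figure D1:**
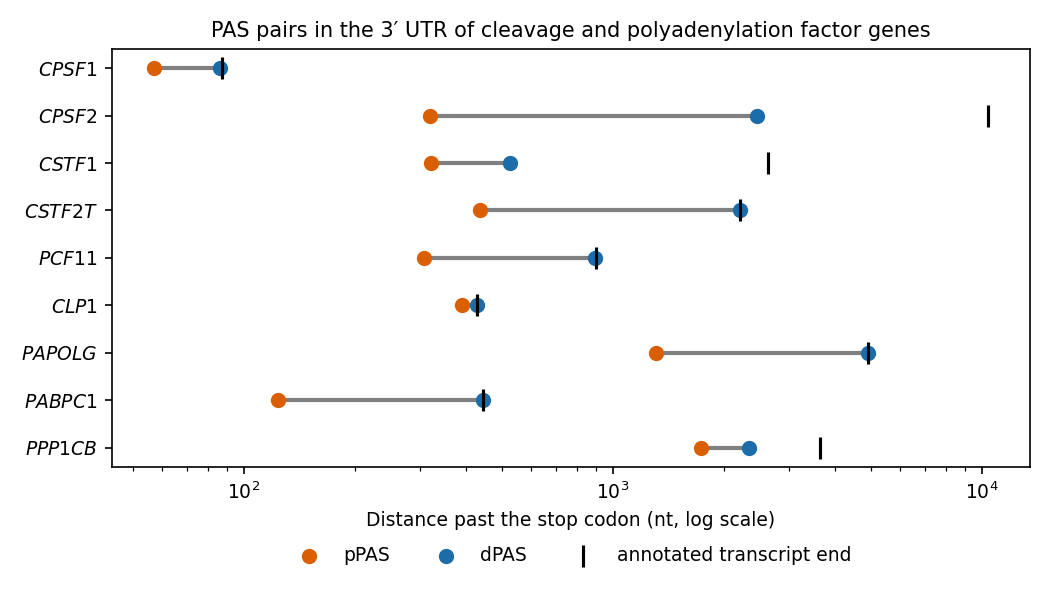
Positions of the pPAS (orange), the dPAS (blue) and the annotated end of the transcript (black bar) for the 9 genes, as distance past the stop codon in nt on a log axis. The dPAS sits within 3 nt of the annotated end in 6 genes, and in CPSF2, CSTF1 and PPP1CB it lies more than 1000 nt short of it. Over all genes, 563 of 2723 (20.7%) had a dPAS more than 1000 nt short of the annotated end, with genes that could not be placed counted among the rest.

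Of the CPSF genes, CPSF1 encodes the large scaffold subunit, CPSF160. Its PASs lay on the minus strand of chromosome 8 at 145618476 (pPAS) and 145618447 (dPAS), only 29 nt apart. The short isoform kept 66.3% of a 3′ UTR that is 86 nt long in all. None of the 14 annotated CPSF1 transcripts ended within 24 nt of the pPAS, and 3 ended within 24 nt of the dPAS. CPSF2 encodes CPSF100, a non-catalytic relative of the endonuclease. Its PASs, on the plus strand of chromosome 14, lay 2136 nt apart at 92628407 and 92630543. The short isoform kept 13.0% of the 3′ UTR of the long isoform, the smallest share among the 9 genes. The long isoform of CPSF2 therefore had a 3′ UTR 7.70-fold the length of the short one. The annotated 3′ UTR of CPSF2 is 10401 nt, and the site taken as dPAS lay 7946 nt short of its end. No annotated transcript ended within 24 nt of either PAS.

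Of the CstF genes, CSTF1 encodes the WD40 subunit CstF50, and CSTF2T encodes a paralog of the RNA-binding subunit CstF64 that is known from the mouse for its role in sperm formation. CSTF1, on chromosome 20 (plus strand), had PASs 205 nt apart at 54979104 and 54979309. The short isoform kept 61.0% of the 3′ UTR of the long isoform. As in CPSF2, the dPAS of CSTF1 lay well short of the annotated end, by 2109 nt, and no annotated transcript ended near either PAS. CSTF2T is annotated with 1 exon, so that its transcript needs no splicing, and its PASs lay at 53457023 and 53455247 on the minus strand of chromosome 10. They were 1776 nt apart, and the short isoform kept 19.7% of the 3′ UTR. The dPAS lay 1 nt from the annotated end of its only transcript, and no annotated transcript ended at its pPAS.

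Of the CFII genes, PCF11 encodes the subunit that contacts the C-terminal domain of RNA polymerase II and takes part in transcription termination, and CLP1 encodes an RNA kinase. PCF11, on chromosome 11 (plus strand), had PASs 590 nt apart at 82896243 and 82896833, and the short isoform kept 34.2% of the 3′ UTR. Its dPAS lay 3 nt from the annotated end, whereas none of its 8 annotated transcripts ended within 24 nt of the pPAS. CLP1, on the same chromosome and strand, had PASs at 57429298 and 57429336. They were 38 nt apart, so that the short isoform kept 91.1% of the 3′ UTR. Both ends of CLP1 are annotated, with 2 of its 7 transcripts ending within 24 nt of the pPAS and 3 within 24 nt of the dPAS, although the windows around the PASs overlap.

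PAPOLG encodes poly(A) polymerase gamma, a relative of the main nuclear enzyme that adds the tail. It had the widest pair of the 9 genes, 3617 nt apart at 61025603 and 61029220 of chromosome 2 (plus strand). The short isoform kept 26.6% of the 3′ UTR, and annotated transcripts ended within 24 nt of both PASs, 3 of 7 at the pPAS and 2 at the dPAS. PABPC1 encodes the main cytoplasmic poly(A)-binding protein, which coats the tail and acts in translation and mRNA stability. Its PASs lay at 101715465 and 101715144 on the minus strand of chromosome 8, 321 nt apart, with 27.9% of the 3′ UTR kept in the short isoform. The PABPC1 dPAS fell on the annotated end when positions were taken as 1-based.

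PPP1CB encodes the beta catalytic subunit of PP1. In yeast a PP1 phosphatase is part of the cleavage and polyadenylation complex. The PPP1CB PASs, also on chromosome 2 (plus strand), lay 613 nt apart at 29023902 and 29024515. The short isoform had the longest such 3′ UTR of the 9 genes and kept 73.9% of the 3′ UTR of the long isoform. The dPAS lay 1291 nt short of the annotated end of the transcript used for the measurement, while another of its 16 transcripts ended within 24 nt of it. None of the 16 ended within 24 nt of the pPAS.

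The distance between the PASs had a median of 590 nt over the 9 genes, against 760 nt over the 2723 genes (quartiles 256 and 1756 nt). At the narrow end, only 1.18% of all genes had a shorter distance than CPSF1 and 2.39% a shorter one than CLP1. At the wide end, 92.7% of all genes had a shorter distance than PAPOLG and 80.9% a shorter one than CPSF2. The other genes lay between, with 21.1% of all genes below CSTF1 and 75.3% below CSTF2T. PASs over 1000 nt apart were found in 3 of the 9 genes and in 1140 of all genes (41.9%). The authors counted reads that ended within 24 nt of a PAS, and PASs at most 48 nt apart therefore share part of their windows. This was so in 2 of the 9 genes, CPSF1 and CLP1, and in 116 of all genes (4.26%), and how reads in a shared window were assigned was not given in any source used here.

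**Figure D2:**
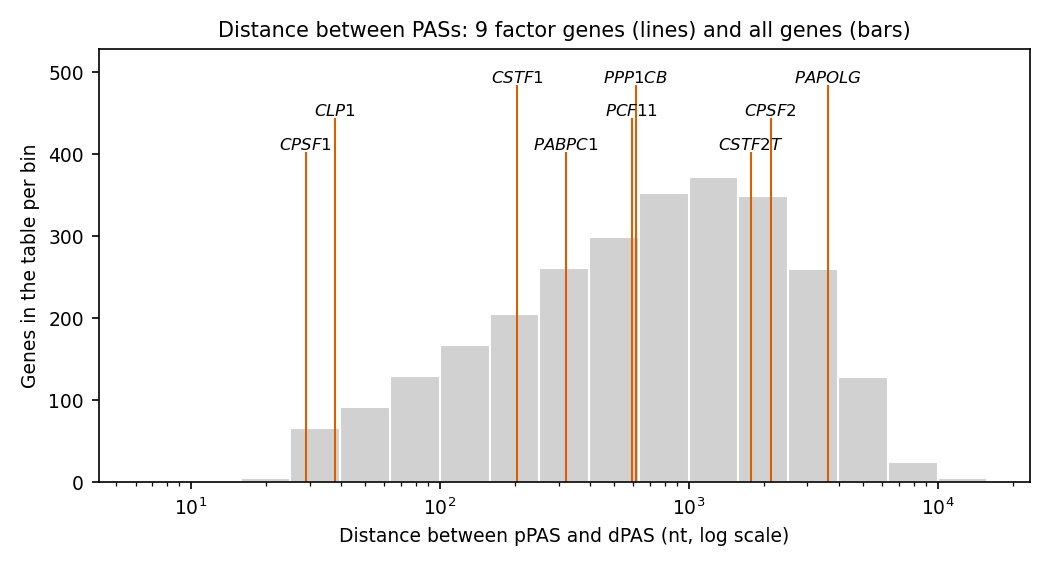
Distance between the pPAS and dPAS in nt on a log axis, with the number of all 2723 genes per bin as grey bars and each of the 9 factor genes as an orange line. CPSF1 and CLP1 stand at the low end at 29 and 38 nt, and PAPOLG at the high end at 3617 nt.

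The poly(A) signal, AATAAA or ATTAAA on the strand of the mRNA in the 40 nt up to the PAS, was present at 8 of 9 dPASs and 6 of 9 pPASs. Over all genes it was present at 80.3% of dPASs and 55.5% of pPASs. Both PASs had it in 6 genes, CPSF2, CSTF1, CSTF2T, PCF11, CLP1 and PABPC1, as did 45.5% of all genes. In PAPOLG and PPP1CB it stood at the dPAS alone, the pattern of 34.9% of all genes. CPSF1 had it at neither PAS, as did 9.66% of all genes, nor did any of 10 weaker hexamers stand there. Where the signal was present, its first base lay 14 to 25 nt before the pPAS (median 17 nt, against 21 nt over all genes) and 17 to 24 nt before the dPAS (median 21 nt, against 20 nt).

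Within genes, the signals differed in letters and spacing. CPSF2 had AATAAA 25 nt before the pPAS and ATTAAA 24 nt before the dPAS, and CSTF1 had ATTAAA 19 nt before the pPAS and AATAAA 17 nt before the dPAS, so that the 2 genes carried the variant at opposite ends. PCF11 had AATAAA 18 nt before both PASs. In CLP1 the AATAAA stood 15 nt before the pPAS and another copy 22 nt before the dPAS, and in the printed sequences these are separate copies, with no base shared. The PPP1CB pPAS had AGTAAA, 1 base away from AATAAA, at 18 nt, and the PAPOLG pPAS had neither a canonical nor a weaker hexamer.

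**Figure D3:**
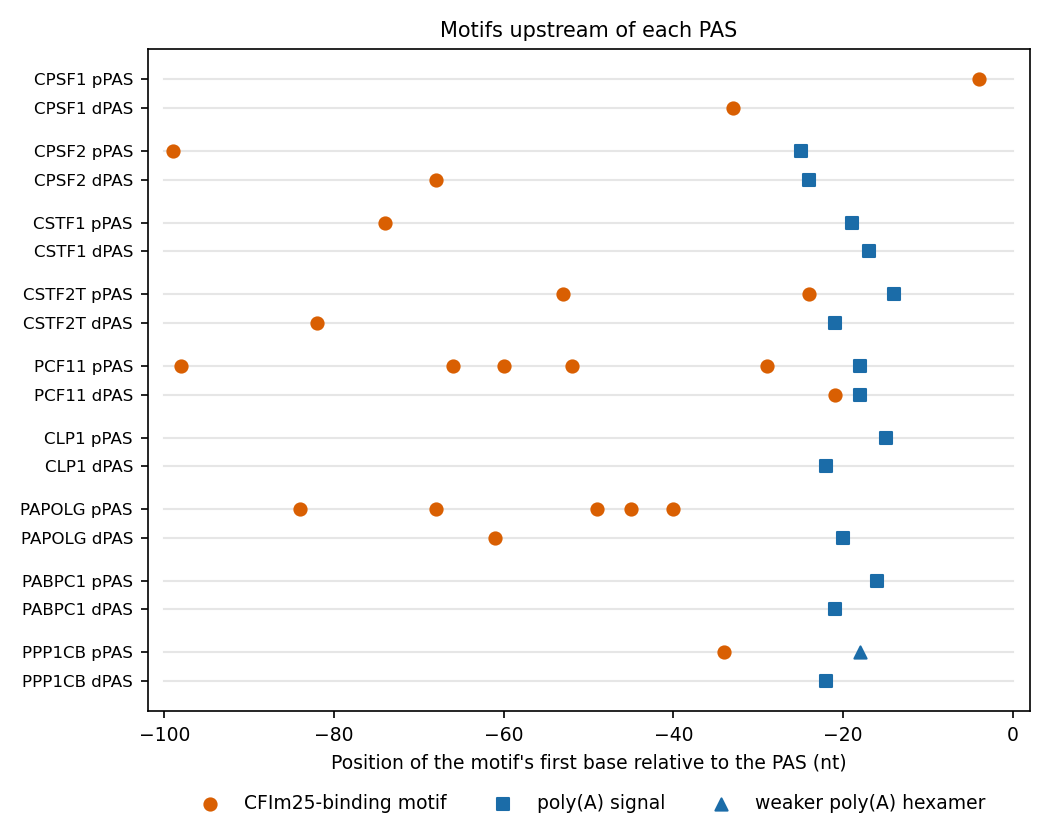
Position of the first base of each UGUA, the CFIm25-binding motif (circles), poly(A) signal (squares) and weaker hexamer (triangle, drawn where there is no signal) relative to the PAS in nt, for the 18 PASs of the 9 genes. UGUA is clustered before the pPASs of PCF11 and PAPOLG, with 5 copies each, and is absent before both PASs of CLP1 and PABPC1.

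UGUA was more frequent at the pPAS of these genes than at the dPAS. In the 100 nt up to the PAS, counted on the strand of the mRNA with overlapping copies included, the 9 genes held 16 copies at pPASs and 5 at dPASs. None of the 9 genes had more copies at the dPAS, a pattern found in 996 of the 2723 genes (36.6%). More copies at the pPAS were found in 5 genes, CSTF1, CSTF2T, PCF11, PAPOLG and PPP1CB, against 25.8% of all genes, and equal numbers in 4, CPSF1, CPSF2, CLP1 and PABPC1, against 37.6% of all genes. At least 1 copy stood at 7 of 9 pPASs and 5 of 9 dPASs, while over all genes this was so at 49.4% of pPASs and 60.0% of dPASs. These are counts over 9 named genes with no test, and they do not show that the genes differ from the table as a group.

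Much of the excess came from PCF11 and PAPOLG, which held 5 copies each at the pPAS and 1 at the dPAS. At PCF11 the copies began 98, 66, 60, 52 and 29 nt before the pPAS. At PAPOLG they began 84, 68, 49, 45 and 40 nt before it, and the copies at 49 and 45 nt follow each other directly, as TGTATGTA in the printed stretch. Only 12 of the 2723 genes (0.441%) had 5 or more copies at the pPAS, and 9 (0.331%) had as many at the dPAS, a threshold that was chosen after the values were seen. The single copy at the PCF11 dPAS began 21 nt before it and shares its last base with the first base of the poly(A) signal, and that at the PAPOLG dPAS began 61 nt before it.

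The other genes held few copies. CSTF2T had UGUA 53 and 24 nt before the pPAS and 82 nt before the dPAS, and CPSF2 had it 99 nt before the pPAS and 68 nt before the dPAS. CSTF1 had it 74 nt and PPP1CB 34 nt before the pPAS, with none at either dPAS. CPSF1 had 1 copy, which counted for both of its PASs because they are so close, at 4 nt before the pPAS and 33 nt before the dPAS. CLP1 and PABPC1 had none.

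**Figure D4:**
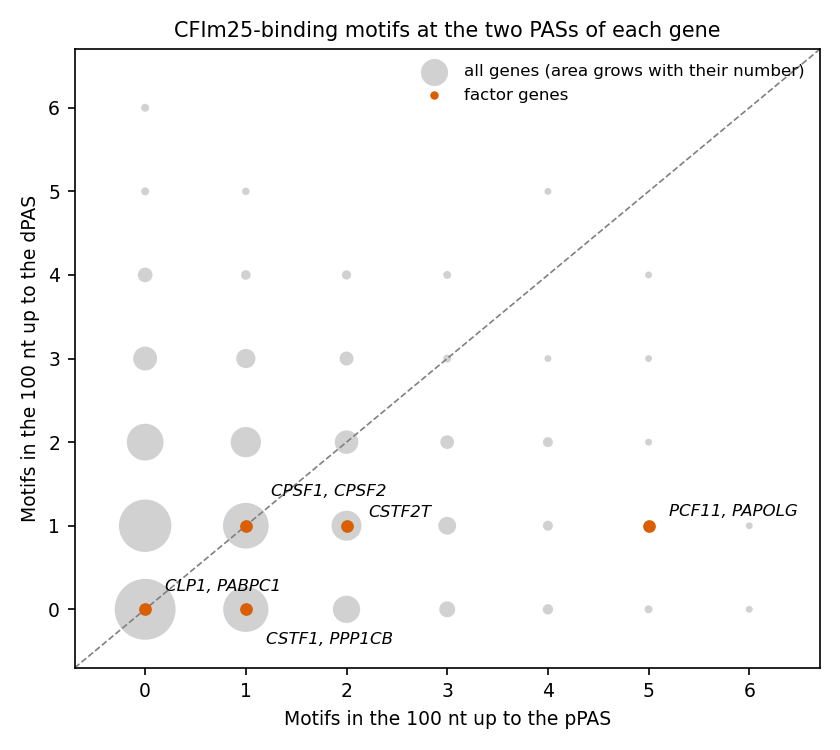
Number of UGUA copies in the 100 nt up to the pPAS (horizontal axis) and up to the dPAS (vertical axis), with all 2723 genes as grey circles whose area grows with the number of genes and the 9 factor genes as orange points. All 9 lie on or below the dashed line of equal numbers, with PCF11 and PAPOLG at 5 and 1 farthest to the right.

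Downstream of the PAS, where CstF binds, G and T made up a median of 57.5% of the 40 nt after the dPAS, as they did over all genes. CSTF1 had the highest share after a pPAS, at 65.0%, and CLP1 the lowest, at 42.5%, against a median of 52.5% over all genes. In CPSF1 and CLP1, with PASs 29 and 38 nt apart, the 40 nt after the pPAS cover the whole stretch between the PASs and run past the dPAS. After the dPAS the share ran between 47.5% in CPSF2 and 62.5% in PCF11. T alone made up a median of 45.0% after the dPAS, with 52.5% in CSTF1 as the highest and 22.5% in CPSF1 as the lowest, against 37.5% over all genes.

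The sequence after the pPAS was A-rich, meaning that 20 nt held 12 or more A, or 6 A in a row, in CPSF1 and CLP1, with 13 A in each. The other 7 pPASs had between 3 A in PAPOLG and 10 A in CSTF2T, and the 9 dPASs between 3 A in PABPC1 and 8 A in PPP1CB, none of them A-rich. Over all genes, 26.7% of pPASs and 10.2% of dPASs were A-rich. Oligo(dT) is known to prime at A-rich stretches inside a transcript as well as at the tail, and the A-rich pPASs were those of the 2 genes with the closest pairs. Whether internal priming contributed to these PASs was not tested.

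The stretch that only the long isoform carries summed to 9325 nt over the 9 genes and held 53 copies of UGUA and 30 of AUUUA, the core of AU-rich elements, which are known to shorten the life of mRNAs. PAPOLG had 22 UGUA and 8 AUUUA, and CPSF2 had 14 and 8, but per length their UGUA was close to that of the table, at 6.08 and 6.55 per kb against a median of 5.71. AUUUA was densest in PPP1CB, at 6.53 per kb (4 copies), and in PABPC1, at 6.23 per kb (2 copies), against a median of 1.83 per kb over all genes (upper quartile 3.57). Its density was 5.1 per kb in PCF11, 3.7 per kb in CPSF2 and 2.2 per kb in PAPOLG. CSTF2T had 5 copies of each motif, which gave 2.82 per kb. PCF11 had 4 UGUA and 3 AUUUA, and CSTF1 had 1 UGUA and no AUUUA. CPSF1 and CLP1 had neither motif in stretches of 29 and 38 nt. The share of A and T in the stretch had a median of 69.7% over the 9 genes and 62.7% over all genes. It ran between 61.1% in CPSF2 and 86.8% in CLP1, where 99.7% of all genes had a lower share. In CLP1 these are largely the same bases as those counted after its pPAS for G and T and for A, and not a separate feature.

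In 4 of the 9 genes at least 1 PAS lay inside the bounds of another annotated gene. This was not counted over all genes, so whether it is common in the table is not known here. The CPSF1 dPAS lay in the last exon of ADCK5, which runs toward it on the opposite strand, 10 nt before the ADCK5 end, and the CPSF1 pPAS lay 19 nt beyond that end. Both CSTF2T PASs lay in an intron of PRKG1, on the opposite strand. The PCF11 dPAS, and not the pPAS, lay in an exon of the antisense lncRNA PCF11-AS1, and both lay in an intron of a second antisense lncRNA, ANKRD42-DT. Both PPP1CB PASs lay in an intron of SPDYA, which is transcribed on the same strand, so that the strand of a read does not tell these genes apart.

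Among 26 genes listed for the machinery, 13 had a PAS pair in the table. Both CFII genes and all 3 CFIm genes were present, against 2 of 6 CPSF genes and 2 of 4 CstF genes. Of the poly(A) polymerases, 1 of 2 was present, of the poly(A)-binding proteins 1 of 3 and of the PP1 catalytic subunits 2 of 3, while none of 3 scaffold and associated proteins had a row. The share of all expressed genes with a row is not known here, so these counts do not show a difference between complexes. Why a gene had no row was not examined, and its absence does not show a lack of APA. Of the CFIm genes, CPSF6 had 4418 nt between its PASs, more than any of the 9 genes, NUDT21, which encodes CFIm25 itself, had 3488 nt, and CPSF7 had 82 nt. PPP1CC, the other PP1 gene with a row, is outside CFIm but was not among the 9 genes. Its PASs lay 96 nt apart, against 613 nt in PPP1CB.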

How the data were processed

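The authors trimmed read 2 of each QuantSeq FWD library, aligned it with STAR 2.7.7a to hg19, kept alignments from 100 nt before to 25 nt after PASs of PolyA_DB, and counted reads ending within 24 nt of a PAS. The values used here are the genome positions of 1 pPAS and 1 dPAS per gene, which the authors deposited in a table and which were taken as 1-based. An offset of 1 nt could not be told from the spacing of the poly(A) signals, so distances to annotated ends and motifs carry that uncertainty. The table also holds a relative expression difference between the groups, an adjusted p-value and a class of direction, which are the authors' own comparison and were not used. Of 2724 rows, 1 repeat was dropped. Deposited read statistics of 6 numbered libraries match no sample by name, so depth per sample was not analysed here.

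Sequence was read from GRCh37, the build of hg19. As a check of the build, 80.3% of dPASs and 55.5% of pPASs had a poly(A) signal in the last 40 nt, whereas 5.88% of dPASs and 3.78% of pPASs had it in 40 nt that begin 240 nt before them. Stop codons, exons and ends come from GENCODE release 44 mapped to GRCh37, using the canonical transcript where it holds both PASs. A PAS up to 100 nt past the annotated end was still placed in the last exon. The motif search was tested on simulated sequence. All 9 genes are named, and sequences are printed for selected PASs, with none from chromosome 8. Of the machinery list, every gene with a row is named with its distance. Members and lists were chosen with earlier results of these data known. Alternatives were the search windows, the hexamers, the A-rich rule, the transcript and a minimum distance. Analyses used Python 3.11.15 and matplotlib 3.10.9.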

Additional observations from a re-analysis of the deposited data

How the results depend on the processing

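Most counts were stable to the choices of processing. The 6 genes with a poly(A) signal at the pPAS became 5 with AATAAA alone and 7 with the 10 weaker hexamers, and the 8 with a signal at the dPAS became 7 with AATAAA alone. Counting UGUA in the 100 nt up to and the 100 nt after each PAS gave 1 gene with more copies at the dPAS, PPP1CB, in place of 0. Requiring a run of 6 A left 1 gene with A-rich sequence after a PAS, CLP1, in place of 2. With the transcript of the longest coding sequence, 8 genes had both PASs in the 3′ UTR, PPP1CB being the exception. With PASs at least 100 nt apart, the median distance was 613 nt over 7 genes, in place of 590 nt. No paired analysis was possible because every gene has 1 PAS pair for all samples together. Nor could a sample be left out. The reads behind a PAS, and so how near to its PolyA_DB position they ended, are not known here.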
